A study of Homo sapiens with 6 samples.

Results

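The Mediator kinase module genes are 7 of 20037 protein-coding genes in the RefSeq table of the human assembly GRCh38, chosen by name as the known subunits of the module: CDK8, CDK19, CCNC, MED12, MED12L, MED13 and MED13L. A ChIP-seq peak was assigned to a gene when its summit, the position of its highest pile-up, lay within the gene or up to 100 kb beyond either end. Chromatin was studied in MR49F, a derivative of the prostate cancer line LNCaP that is resistant to the antiandrogen enzalutamide and was kept in 10 µM of that drug, and in LNCaP itself, which is sensitive to it and for which the labels give no enzalutamide. Each line was precipitated once with 4 µg of an antibody to BRG1, the ATPase of the SWI/SNF chromatin remodelling complexes encoded by SMARCA4, and once with an antibody to SMARCC2, a scaffold subunit of the same complexes also called BAF170. All cells had been fixed with 2 mM disuccinimidyl glutarate for 45 min and 1% formaldehyde for 10 min, and the study's 2 inputs were not analysed here. With 1 library for each line and antibody no difference between the lines has a replicate check, so none was tested, and line and drug exposure cannot be told apart.

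The kinase module is a detachable part of Mediator, the large complex that bridges transcription factors at enhancers and RNA polymerase II at promoters. Its catalytic subunit is CDK8 or the paralogue CDK19, each of which pairs with cyclin C, the product of CCNC. MED12 or MED12L activates the kinase, and MED13 or MED13L ties the module to core Mediator, where its presence hinders polymerase binding. CDK8 and CDK19 have been studied as drug targets in advanced prostate cancer, and MED12 is mutated in some prostate tumours.

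SWI/SNF peaks were found in the windows of all 7 genes in both lines, and the direction of the difference between lines varied among the genes. Having peaks is common: of all 20037 protein-coding genes, only 1102 had no peak in any list. The CDK8 window held 3 BRG1 peaks in MR49F, against 10 in LNCaP. With SMARCC2 it held 6 peaks in MR49F, against 8 in LNCaP. MED12 went the other way, with 7 BRG1 peaks in MR49F against 3 in LNCaP, and 7 SMARCC2 peaks in MR49F against 1 in LNCaP. None of the LNCaP summits in the MED12 window lay inside the gene itself. In these windows CDK19 had by far the most peaks of the 7 in every library. Inside the genes themselves, CDK19 and MED13L each had 11 SMARCC2 summits in MR49F.

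Of the 7 genes, CCNC and MED12 had more peaks in MR49F with both antibodies, a pattern that 53.8% of all protein-coding genes shared. In the windows extended by 100 kb, CDK8 alone had fewer peaks in MR49F with both antibodies, as 3.94% of all protein-coding genes did. CDK8, CDK19, MED12L, MED13 and MED13L had fewer BRG1 peaks in MR49F, 5 genes in all, against a background of 20.7%. In MED12L, MED13 and MED13L that difference was 1 peak each. CDK8 was also the only gene of the 7 with fewer SMARCC2 peaks in MR49F, which held for 6.15% of all genes. CDK8 did not stand alone in other settings. With no extension the BRG1 and SMARCC2 differences were -2 and -1 at CDK19, and -2 and -2 at MED13. With lists of equal length they were -7 and -10 at CDK19, and -1 and -4 at MED13. With the 10000 strongest peaks they were -6 and -3 at CDK19, -4 and -2 at MED13, and -1 and -1 at both MED12L and MED13L. In that setting they were 0 and -3 at CDK8, which thus no longer had fewer peaks with both antibodies. At MED13 they were -2 and -1 both with a 10 kb extension and by nearest gene end. With the 100 kb extension, CDK19, MED12L and MED13L combined fewer BRG1 with more SMARCC2 peaks in MR49F, the pattern of 13.2% of all genes. At CDK19 that SMARCC2 difference was only 1 peak. Besides the negative values given above, it was 6 at a −log10 q of at least 5 and 3 by nearest gene end. At CCNC the summed difference of 5 peaks was 0 with a 10 kb or no extension and by nearest gene end, -1 with lists of equal length and -2 with the 10000 strongest peaks. At MED12 the summed difference of 10 was 2 with a 10 kb or no extension and by nearest gene end, 3 with lists of equal length and 0 with the 10000 strongest peaks. These counts were known when the 7 genes were put together, so they describe the genes and support nothing beyond them.

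**Figure D1:**
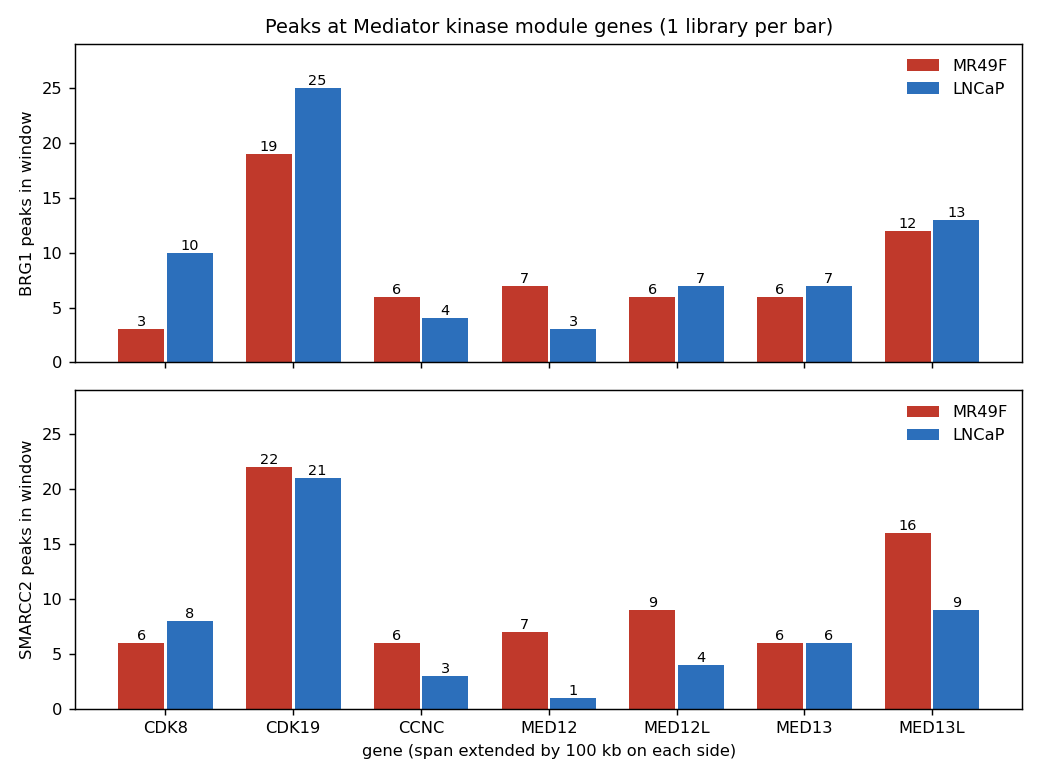
Number of BRG1 peaks (upper panel) and SMARCC2 peaks (lower panel) whose summit lay within each gene or 100 kb of it, 1 library per bar, MR49F in red and LNCaP in blue. The MR49F bar is the shorter one with both antibodies at CDK8 and the taller one with both at CCNC and MED12.

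Summed over the 7 genes, there were 59 BRG1 peaks in MR49F and 69 in LNCaP, so MR49F contributed 46.1% (Wilson 95% interval 37.7 to 54.7). Summed the same way over all protein-coding genes, MR49F contributed 55.7% of BRG1 peaks. SMARCC2 sums were 72 for MR49F and 52 for LNCaP, which gave MR49F 58.1% (49.3 to 66.4), beside 65.6% over all protein-coding genes. Without CDK8 the shares over the other 6 genes were 48.7% (39.8 to 57.7) for BRG1 and 60.0% (50.7 to 68.7) for SMARCC2. The intervals cover counting error only, since peaks of 1 library are not replicates and neighbouring peaks share chromatin, and none of them is a test against all genes. With every list limited to its 25706 strongest peaks, which sets the whole-list share to 50%, the SMARCC2 share of MR49F at the 7 genes was 40.2%, the opposite side of even. The BRG1 share was 50.5% at a −log10 q of at least 5, also across even from its main value. The median difference, MR49F minus LNCaP, was -1 BRG1 peak and 3 SMARCC2 peaks for the 7 genes, beside 1 and 2 for all genes.

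**Figure D2:**
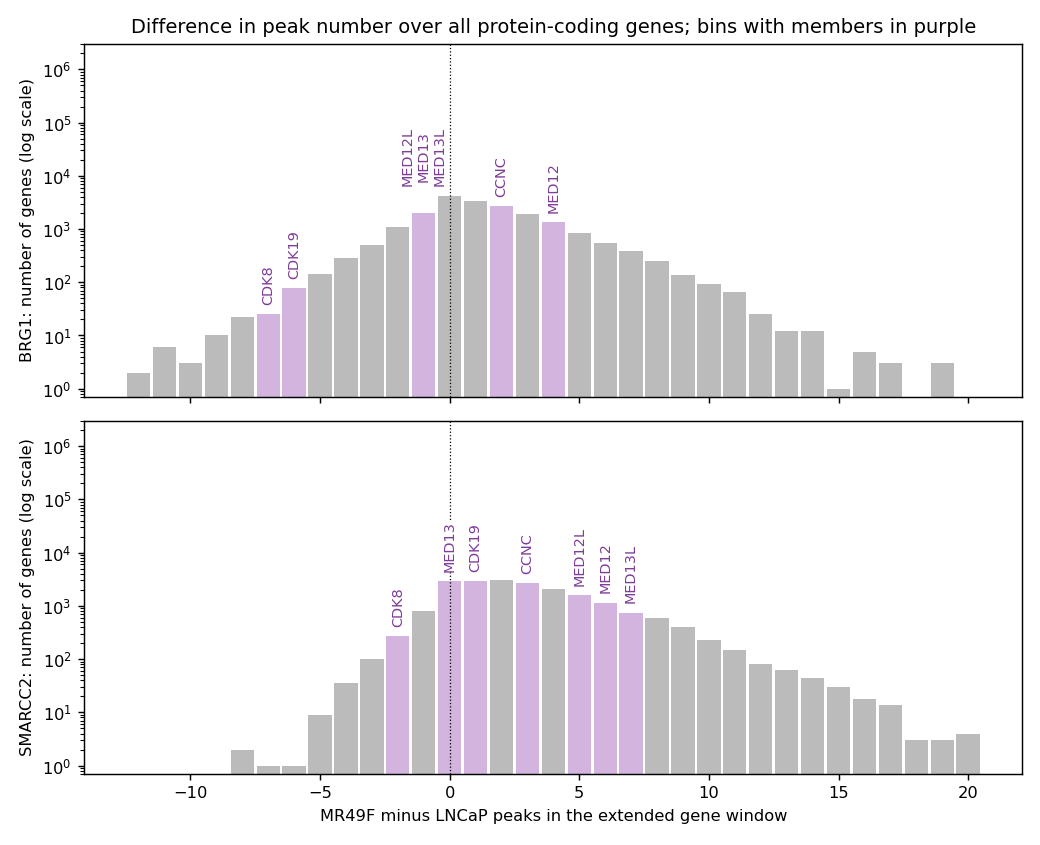
Difference in peak number, MR49F minus LNCaP, in the extended gene window (x axis) against the number of protein-coding genes on a log scale (y axis), for BRG1 above and SMARCC2 below; bins that hold the named genes are purple and the most extreme genes lie beyond the axis. CDK8 is the leftmost of the 7 in both panels, at -7 and -2, while MED12 is at 4 and 6.

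Joining overlapping peaks of the 4 lists gave 100 regions at the 7 genes. Of these, 31 held a peak of all 4 lists, or 31.0% beside 22.7% of regions genome-wide. Both antibodies marked 9 regions in MR49F alone, against a background of 18.3%. Both marked 8 regions in LNCaP alone, against 3.67%. The 8 LNCaP-only regions were spread over 4 genes, with 4 at CDK8, 2 at MED13 and 1 each at CDK19 and MED13L. MED12 held 5 of the 9 MR49F-only regions, MED13L 2, and CCNC and MED13 1 each. These small counts depended on the settings: at a −log10 q of at least 5 there were 4 LNCaP-only regions, and with lists of equal length 11, beside 1 MR49F-only region.

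By place, 8 regions lay within 1 kb of an annotated start (for MED13, of its end with the higher coordinate), 46 elsewhere inside the genes and 46 in the flanks, going by the midpoint of a region. Those called in all 4 lists numbered 5 at the starts, 14 inside the genes and 12 in the flanks. Of all regions, wherever they lay, 22.7% were called in all 4 lists, and no such share was computed by place. At the starts, both antibodies marked 2 regions in MR49F alone, beside 19.6% of all regions near RefSeq starts, and 0 in LNCaP alone, beside 1.86%. Counting 1 or both antibodies there were 3 in MR49F alone, beside 33.2%, and 0 in LNCaP alone, beside 8.84%. Inside the genes, both antibodies marked 1 region in MR49F alone, beside 16.8% of all regions inside protein-coding genes, and 6 in LNCaP alone, beside 4.39%. Counting 1 or both antibodies there were 10 in MR49F alone, beside 38.4%, and 14 in LNCaP alone, beside 19.1%. LNCaP-only regions were thus the more numerous inside the genes either way, with a smaller ratio than when both antibodies were required. In the flanks, both antibodies marked 6 regions in MR49F alone and 2 in LNCaP alone, and 1 or both marked 18 in MR49F alone and 10 in LNCaP alone. No share over all flank regions was computed, so the flank counts are description only. Of all regions, wherever they lay, both antibodies marked 18.3% in MR49F alone and 3.67% in LNCaP alone. The flanks also hold other genes, to which the flank peaks may belong.

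Promoter windows were reached more often by MR49F peaks than by LNCaP peaks. RefSeq promoter windows, from 250 bases before to 50 after an annotated start, were matched for 6 of the 7 genes, 9 windows in all. MR49F BRG1 peaks overlapped 6 of the 9 windows, beside 28.9% of all 35116 windows, and MR49F SMARCC2 peaks also overlapped 6, beside 24.5%. LNCaP BRG1 peaks overlapped 4, beside 19.1%. LNCaP SMARCC2 peaks overlapped 0, beside 9.68%, although 5 of the 6 genes had an LNCaP SMARCC2 summit within 1 kb downstream of a start. At CDK8 the LNCaP summits lay 445 (BRG1) and 798 (SMARCC2) bases downstream, in peaks that stopped short of the window. Peaks were also wider in MR49F, with medians of 820 bases for BRG1 and 753 for SMARCC2, against 743 and 659 in LNCaP. The part of peak width in these overlaps was not tested. With no LNCaP SMARCC2 overlap, none of the 9 windows was reached by all 4 lists, beside 6.3% of all windows, or by both LNCaP lists alone, beside 0.732%. The upstream 250 bases are shown here for CDK8, MED12, MED12L and MED13L, the 4 genes with a single annotated start, where the lines differ: at CDK8 and MED12 both MR49F lists and neither LNCaP list reached the window, a pattern of 8.35% of all windows, and at MED12L and MED13L both MR49F lists and LNCaP BRG1 did. The lines also differed at other windows: those lists reached the second CCNC start too, MR49F SMARCC2 and LNCaP BRG1 the other CCNC start, and MR49F BRG1 alone the third of 3 CDK19 starts. The sequences are from RefSeq on GRCh38.p14, each on its gene's own strand, with motif matches in capitals.
CDK8, chr13:26253879-26254128, plus strand: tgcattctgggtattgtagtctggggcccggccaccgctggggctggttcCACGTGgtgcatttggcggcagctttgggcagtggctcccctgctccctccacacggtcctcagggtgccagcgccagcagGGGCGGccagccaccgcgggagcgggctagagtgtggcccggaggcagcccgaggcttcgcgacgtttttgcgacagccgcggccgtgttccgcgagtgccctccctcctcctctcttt
MED12, chrX:71118346-71118595, plus strand: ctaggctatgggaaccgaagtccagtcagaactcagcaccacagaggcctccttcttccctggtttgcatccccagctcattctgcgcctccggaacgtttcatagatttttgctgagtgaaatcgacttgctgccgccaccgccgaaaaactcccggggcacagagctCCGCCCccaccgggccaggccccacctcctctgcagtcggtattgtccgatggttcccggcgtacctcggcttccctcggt
MED12L, chr3:151085414-151085663, plus strand: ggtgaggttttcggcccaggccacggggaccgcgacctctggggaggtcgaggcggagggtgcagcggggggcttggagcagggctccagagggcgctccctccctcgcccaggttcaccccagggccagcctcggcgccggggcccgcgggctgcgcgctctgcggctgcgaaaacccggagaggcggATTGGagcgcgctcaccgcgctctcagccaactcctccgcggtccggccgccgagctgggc
MED13L, chr12:116277694-116277943, minus strand: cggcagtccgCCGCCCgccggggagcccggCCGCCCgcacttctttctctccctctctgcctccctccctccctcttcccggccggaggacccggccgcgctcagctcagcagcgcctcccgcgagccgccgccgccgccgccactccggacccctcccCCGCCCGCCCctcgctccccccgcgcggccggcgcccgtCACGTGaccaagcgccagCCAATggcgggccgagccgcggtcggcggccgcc
The capitals mark an E-box and a GC box in CDK8, a GC box in MED12, a CCAAT box in MED12L, and 4 GC boxes (2 of them overlapping), an E-box and a CCAAT box in MED13L, in either orientation. Across all 35116 promoters of this length, the GC box GGGCGG was found in 42.6%, CCAAT in 32.0% and the E-box CACGTG in 6.34%. The search also covered AP-1 (TGANTCA, 6.57% of promoters), CRE (TGACGTCA, 1.65%), forkhead (TGTTTAC, 2.98%), the androgen response hexamer AGAACA (12.4%), ETS (CCGGAAG, 8.52%), NRF1 (1.03%) and YY1 (0.248%), none of which matched in these 4 sequences, although the androgen response hexamer matched at the first CCNC start. A match is a run of letters and no evidence of a bound factor.

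CDK8, which encodes the kinase first described in the module, spans 151 kb of chromosome 13, from 26254129 to 26405238 (hg38). Its start lay in the one CDK8 region called in all 4 lists, at 26254001 to 26255675. The number of sequenced tags piled up at the summit, recovered from the authors' fold and p-value, is given here as a height. Heights are not scaled to the depth of a library, so the local background is given beside those at the main sites. At the start it was 53 tags for BRG1 in MR49F over a local background of 4.77 tags, against 43 tags over 12.1 in LNCaP. For SMARCC2 it was 42 tags over 4.34 in MR49F, against 43 over 9.34 in LNCaP. The SMARCC2 heights were nearly equal and the BRG1 height was greater in MR49F, while the background under the summits was lower in MR49F with both antibodies. The −log10 q-values were 33.1 in MR49F against 8.33 in LNCaP for BRG1, and 24.2 in MR49F against 10.9 in LNCaP for SMARCC2.

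Past the start, the CDK8 body was marked mostly in LNCaP. Inside the gene there was 1 BRG1 summit in MR49F, that of the start, against 6 in LNCaP. For SMARCC2 there were 3 in MR49F, against 6 in LNCaP. In the whole window all 3 MR49F BRG1 peaks overlapped an LNCaP BRG1 peak, beside 53.5% of the MR49F list, and 3 of the 10 LNCaP BRG1 peaks overlapped an MR49F one, beside 67.3% of the LNCaP list. For SMARCC2, 2 of 6 MR49F peaks overlapped, beside 40.6%, and 2 of 8 LNCaP peaks, beside 77.1%.

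The 4 LNCaP-only regions of both antibodies at CDK8 lay 71.4, 117, 148 and 206 kb from the start, so that 3 were inside the gene and the last was 54.9 kb past its end. In the first, LNCaP had 30 BRG1 tags over a background of 11.3 and 38 SMARCC2 tags over 7.61. In the second it had 29 over 7.21 and 36 over 7.61. In the region 148 kb from the start, LNCaP had 22 BRG1 tags over 4.03 and 20 SMARCC2 tags over 4.35. The last, at 26459638 to 26460647, held the strongest of these SMARCC2 peaks, with 39 tags over 3.54 and a −log10 q of 20.7, beside 22 BRG1 tags over 3.41 and a −log10 q of 8.15. The BRG1 peak 71.4 kb from the start was weak for its list, with a −log10 q of 3.52 that exceeded only 12.9% of LNCaP BRG1 peaks. MR49F had no called peak in these regions; the tags it had there are not given in a peak list, so absence of a call is not absence of binding.

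The other CDK8 regions were mixed. The region 111 kb from the start had SMARCC2 peaks in both lines, of 23 tags in MR49F and 28 in LNCaP, and a BRG1 peak of 24 tags in LNCaP. A region in RNF6, the neighbouring gene in the window and a ubiquitin ligase gene, lay 32.0 kb before the CDK8 start and had BRG1 peaks of 26 tags in MR49F and 36 in LNCaP and a SMARCC2 peak of 22 tags in MR49F. A similar trio lay 245 kb from the start, with BRG1 peaks of 22 tags in MR49F and 25 in LNCaP and a SMARCC2 peak of 18 tags in MR49F. MR49F SMARCC2 alone was called 63.1 kb before the start with 14 tags and, inside the gene, 143 kb after it with 27. LNCaP SMARCC2 alone was called 43.3 kb before the start with 28 tags and 121 kb after it with 23. LNCaP BRG1 alone was called 132 and 172 kb after the start, with 16 and 22 tags.

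**Figure D3:**
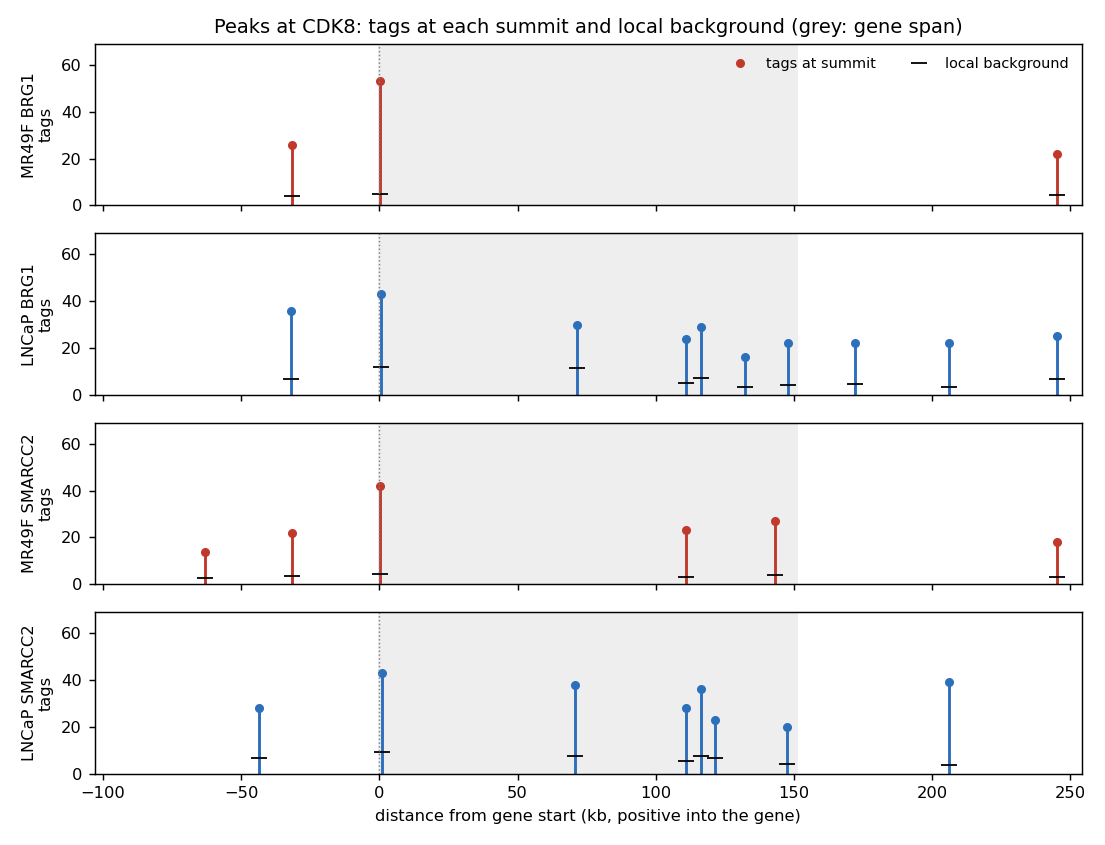
Tags at each peak summit (dots) and local background (black dashes) across the CDK8 window, by distance from the gene start in kb, for MR49F and LNCaP with BRG1 and then with SMARCC2; grey marks the gene. All 4 libraries have a summit near 0 kb, whereas the gene body holds 6 summits in each LNCaP library, start included, against 1 and 3 in MR49F.

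A BRG1 deficit at least as large as that of CDK8 was found at 78 protein-coding genes, 0.389% of all. Deficits at least as large with both antibodies were found at 31, or 0.155%. Genes with few LNCaP peaks cannot reach such a deficit. The CDK8 window of 351 kb held 2.85 LNCaP BRG1 peaks per 100 kb, beside a median of 1.82 over all genes. Both shares are over all genes, whatever their window length and peak number, so they do not show how rare the deficit is among genes like CDK8. The MR49F share of the CDK8 peaks was 23.1% for BRG1 (Wilson 95% interval 8.18 to 50.3) and 42.9% for SMARCC2 (21.4 to 67.4), and both intervals are wide because few peaks were counted. The BRG1 difference at CDK8 was 0 after weaker peaks were dropped to leave 10000 per library. In the 10 Mb centred on CDK8, the ratio of MR49F to LNCaP peaks was 0.986 for BRG1 and 1.36 for SMARCC2, below the 1.22 and 1.85 of the whole lists. This was not particular to CDK8. The ratios were 0.953 and 1.46 around CDK19, 0.968 and 1.21 around MED12L, and 1.06 and 1.54 around MED13. Around CCNC, MED12 and MED13L both ratios were above those of the whole lists. Of 3042 protein-coding genes with windows of similar length more than 1 Mb away, RNF144B had the most similar 4 counts, with 4 BRG1 peaks in MR49F against 10 in LNCaP and 6 SMARCC2 peaks in MR49F against 9 in LNCaP. At the next distance 3 genes were tied, of which EFCAB5 and SERPINI1 come first by symbol. EFCAB5 had 6 BRG1 peaks in MR49F against 10 in LNCaP and 6 SMARCC2 peaks in MR49F against 8 in LNCaP. SERPINI1 had 3 BRG1 peaks in MR49F against 8 in LNCaP and 7 SMARCC2 peaks in MR49F against 8 in LNCaP. Likeness was the sum of the absolute differences over the 4 counts, which came to 2 for RNF144B and 3 for both of the others.

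CDK19, the paralogous kinase gene, spans chromosome 6 from 110609978 to 110815855 on the minus strand. It had 19 BRG1 peaks in MR49F against 25 in LNCaP, and 22 SMARCC2 peaks in MR49F against 21 in LNCaP. Per 100 kb of window this was 4.68 BRG1 peaks in MR49F against 6.16 in LNCaP, and 5.42 SMARCC2 peaks in MR49F against 5.17 in LNCaP. The medians over all genes, in the same order, were 2.32, 1.82, 2.26 and 1.01. Peak densities as high as at CDK19 were reached by 15.5% of genes for BRG1 in MR49F and 2.47% in LNCaP, and by 6.05% for SMARCC2 in MR49F and 0.549% in LNCaP. CDK19 therefore ranked higher among genes in the shorter LNCaP lists than in the MR49F lists. Inside the gene there were 10 BRG1 summits in MR49F against 12 in LNCaP, and 11 SMARCC2 summits in MR49F against 12 in LNCaP. The other peaks of the window lay in its flanks.

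Of the 27 CDK19 regions, 13 were called in all 4 lists, the most of any of the 7 genes. Inside the gene, 3 adjoining regions with midpoints between 145 and 161 kb from the start stood above the rest. The first, at 110652127 to 110658377 and 6251 bases wide, had 184 BRG1 tags over a background of 5.63 in MR49F, against 219 over 6.96 in LNCaP. It had 265 SMARCC2 tags over 5.64 in MR49F, against 271 over 6.86 in LNCaP. By −log10 q its BRG1 peak stood at place 57 of 44308 in MR49F and at place 3 of 36174 in LNCaP, and its SMARCC2 peak at place 84 of 47615 in MR49F and place 9 of 25706 in LNCaP. The site was thus among the strongest in each list, and both heights and backgrounds were lower in MR49F.

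In the middle region BRG1 reached 81 tags over 5.63 in MR49F against 66 over 5.50 in LNCaP, and SMARCC2 126 over 5.64 in MR49F against 88 over 5.72 in LNCaP. In the one nearest the start BRG1 reached 106 tags over 5.01 in MR49F against 64 over 4.40 in LNCaP, and SMARCC2 199 over 4.51 in MR49F against 91 over 4.57 in LNCaP. Backgrounds differed little here, and heights were greater in MR49F with both antibodies. A weaker region 135 kb from the start had 26 BRG1 tags over 5.63 in MR49F against 57 over 5.24 in LNCaP, and 21 SMARCC2 tags over 3.95 in MR49F against 32 over 5.41 in LNCaP.

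The start of CDK19 was called in all 4 lists, with 43 BRG1 tags over 7.51 in MR49F against 38 over 9.16 in LNCaP, and 45 SMARCC2 tags over 5.13 in MR49F against 30 over 7.61 in LNCaP. This region also holds an annotated end of AMD1, a polyamine synthesis gene whose span overlaps that of CDK19, so the peaks cannot be assigned to either gene. The region 272 kb from the start, 66.2 kb past the other end of the gene, was the only one called by both antibodies in LNCaP alone, with 32 BRG1 tags over 5.15 and 33 SMARCC2 tags over 6.52. No CDK19 region was called by both antibodies in MR49F alone. Of the 19 MR49F BRG1 peaks 16 overlapped an LNCaP one, beside the 53.5% of the list, and of the 25 LNCaP BRG1 peaks 16 overlapped an MR49F one, a share close to the 67.3% of the list. For SMARCC2 it was 15 of 22 MR49F peaks, beside 40.6%, and 18 of 21 LNCaP peaks, beside 77.1%.

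**Figure D4:**
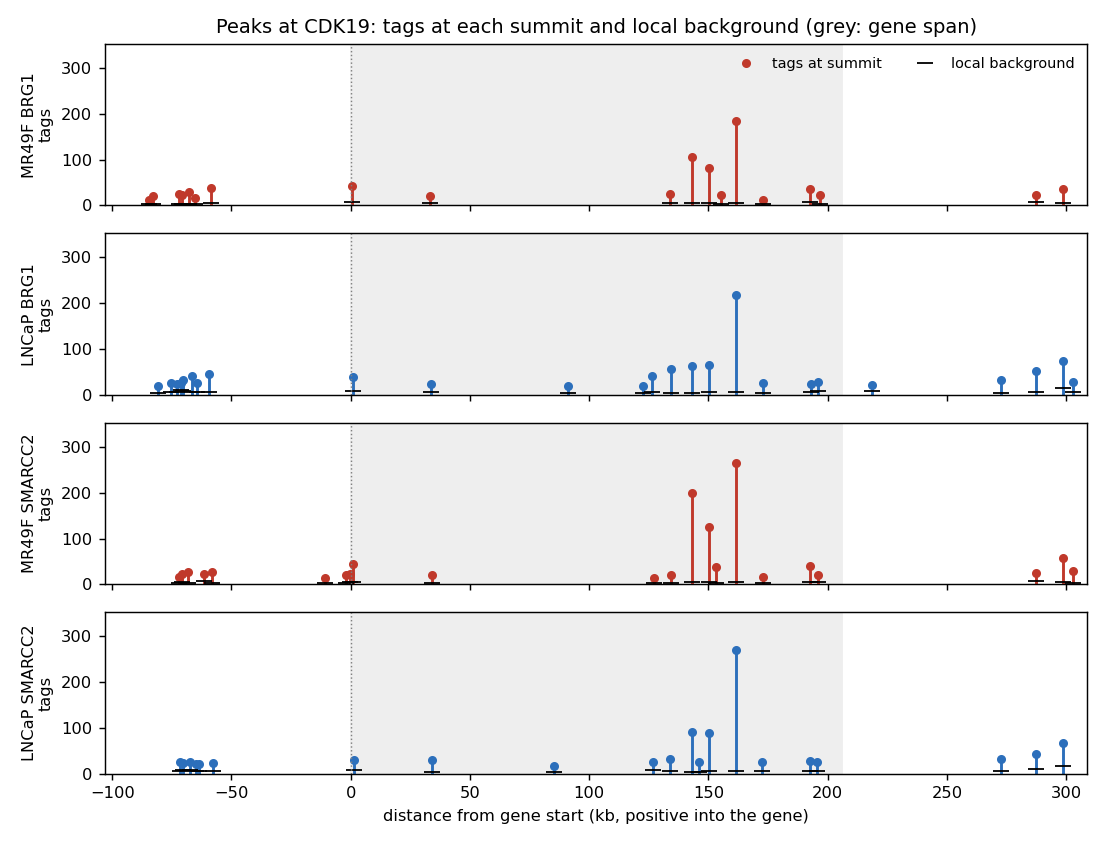
Tags at each peak summit (dots) and local background (black dashes) across the CDK19 window, by distance from the gene start in kb, for MR49F and LNCaP with BRG1 and then with SMARCC2; grey marks the gene. The cluster of summits between 143 and 162 kb dominates all 4 panels, with 184 BRG1 tags in MR49F and 219 in LNCaP at its highest summit.

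Among 1827 genes with windows of similar length, the 4 counts closest to those of CDK19 were at TTC6, TANC1 and PDLIM5, with summed differences of 6, 8 and 9. TTC6 had 17 BRG1 peaks in MR49F against 26 in LNCaP, and 22 SMARCC2 peaks in MR49F against 18 in LNCaP.

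CCNC, which encodes cyclin C, is a short gene on chromosome 6, from 99542387 to 99568814 on the minus strand. It had 6 BRG1 peaks in MR49F against 4 in LNCaP, and 6 SMARCC2 peaks in MR49F against 3 in LNCaP. Its start region was called in all 4 lists, with 22 BRG1 tags over 4.77 in MR49F against 28 over 8.24 in LNCaP, and 25 SMARCC2 tags over 3.75 in MR49F against 33 over 6.48 in LNCaP. Heights and background at the start were therefore both lower in MR49F. The strongest region called in all 4 lists lay 5.57 kb into the gene, with 38 BRG1 tags over 2.76 in MR49F against 35 over 6.23 in LNCaP, and 30 SMARCC2 tags over 2.53 in MR49F against 38 over 6.10 in LNCaP. The extra MR49F peaks lay outside CCNC. The MR49F-only region of both antibodies was in the neighbouring gene USP45, with 29 BRG1 tags over 7.51 and 28 SMARCC2 tags over 6.76. The window also holds PRDM13.

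MED12, the kinase-activating subunit gene, lies on the X chromosome from 71118596 to 71142450. Its start was called by both antibodies in MR49F alone, at 71117681 to 71119924, with 27 BRG1 tags over 3.13 and 18 SMARCC2 tags over 2.39, and −log10 q-values of 14.1 and 8.46. In LNCaP the nearest BRG1 summit was 60560 bases downstream of the start and the nearest SMARCC2 summit 66473 bases. MED12 was thus the only one of the 6 genes with matched promoters that had no LNCaP summit within 1 kb of a start.

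The other 4 MR49F-only regions at MED12 lay in the flanks: in SNX12, at FOXO4, and both beside and at GJB1. They held between 19 and 32 BRG1 tags and between 20 and 38 SMARCC2 tags. The one region called in all 4 lists lay 66.7 kb downstream, beyond the gene and near NLGN3, with 44 BRG1 tags over 5.01 in MR49F against 26 over 3.31 in LNCaP, and 41 SMARCC2 tags over 4.14 in MR49F against 41 over 3.81 in LNCaP. The window also holds CXorf65, IL2RG and ZMYM3, so few of these peaks can be assigned to MED12 itself.

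**Figure D5:**
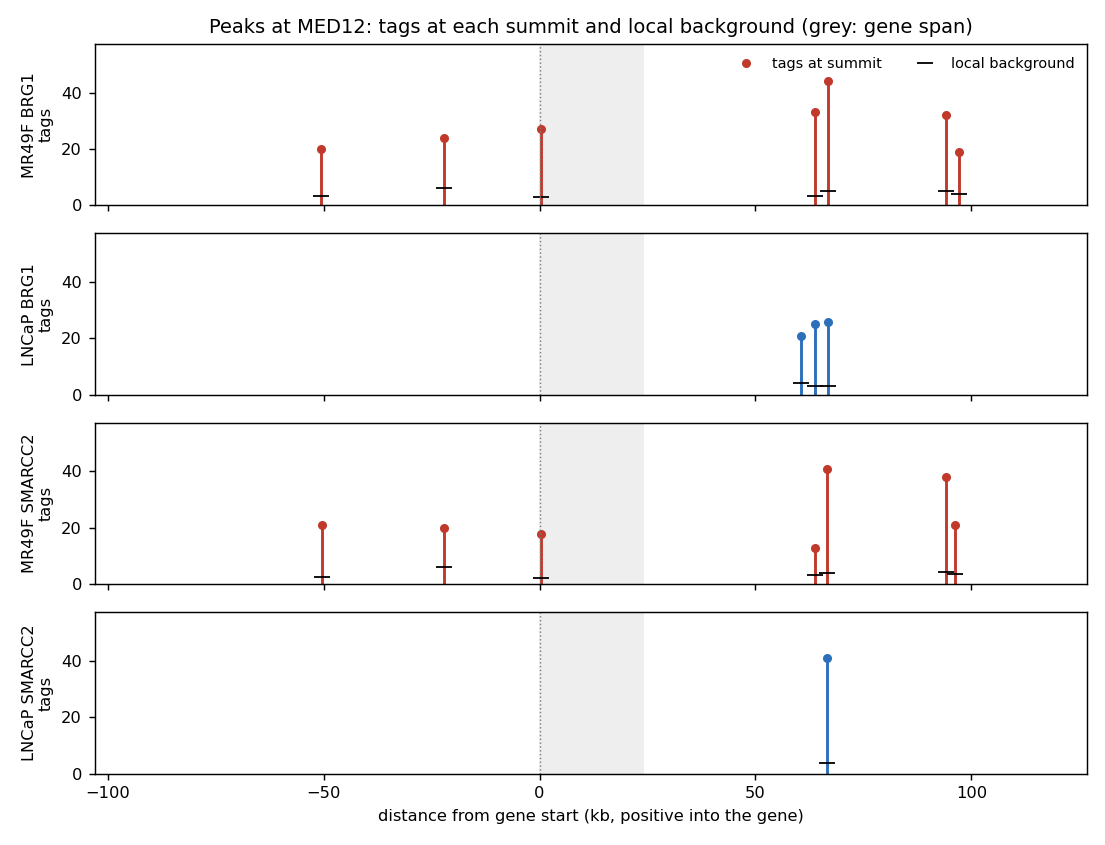
Tags at each peak summit (dots) and local background (black dashes) across the MED12 window, by distance from the gene start in kb, for MR49F and LNCaP with BRG1 and then with SMARCC2; grey marks the gene. Both MR49F panels have a summit at the start, of 27 and 18 tags, where neither LNCaP panel has any.

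The stretch around MED12 differed between the lines as a whole. In the 10 Mb centred on it, MR49F had 107 BRG1 peaks against 39 in LNCaP, a ratio of 2.74, and 116 SMARCC2 peaks against 29 in LNCaP, a ratio of 4.00. The median local background of its peaks, relative to that of autosomal peaks in the same list, was 1.20 times as high in MR49F as in LNCaP for BRG1 and 1.46 times for SMARCC2. At the other 6 genes the background ratio was between 0.795 and 1.14 for BRG1 and between 0.806 and 1.18 for SMARCC2. At CDK8 it was 0.854 for BRG1 and 0.918 for SMARCC2. The part of these backgrounds in the peak differences was not tested.

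MED12L encodes the paralogue of MED12 and is the longest of the 7 genes, on chromosome 3 from 151085664 to 151436653. It had 6 BRG1 peaks in MR49F against 7 in LNCaP, and 9 SMARCC2 peaks in MR49F against 4 in LNCaP. Its start was called in all 4 lists at nearly equal heights, with 35 BRG1 tags over 10.0 in MR49F against 36 over 7.21 in LNCaP, and 34 SMARCC2 tags over 8.46 in MR49F against 37 over 7.62 in LNCaP. The strongest shared region by BRG1 q-value lay 34.8 kb into the gene. It had 56 BRG1 tags over 4.38 in MR49F against 64 over 9.53 in LNCaP, and 78 SMARCC2 tags over 4.34 in MR49F against 93 over 9.91 in LNCaP. Heights there were lower in MR49F and backgrounds lower still. At 27.6 kb BRG1 had 38 tags over 4.12 in MR49F against 33 over 5.15 in LNCaP, while SMARCC2 had 90 over 3.95 in MR49F against 33 over 4.57 in LNCaP. No MED12L region was called by both antibodies in 1 line alone. Other genes lie in the window, among them GPR171, P2RY14, P2RY13, P2RY12 and IGSF10.

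MED13, which encodes the link to core Mediator, lies on chromosome 17 from 61942605 to 62065278. It had 6 BRG1 peaks in MR49F against 7 in LNCaP, and 6 SMARCC2 peaks in each line. Of these, 4 of the 6 MR49F BRG1 peaks overlapped an LNCaP one and 4 of the 7 LNCaP BRG1 peaks an MR49F one, and for SMARCC2 it was 3 of 6 each way. The region at the end with the higher coordinate was called by both antibodies in MR49F alone, with 30 BRG1 tags over 6.51 and 25 SMARCC2 tags over 6.20. A neighbouring region 2.65 kb inside that end was called by both in LNCaP alone, with 29 BRG1 tags over 9.16 and 39 SMARCC2 tags over 9.15. A further LNCaP-only region lay 29.5 kb inside that end, with 34 BRG1 tags over 5.15 and 39 SMARCC2 tags over 5.34. The strongest shared BRG1 region in MR49F lay 41.4 kb outside that end, with 45 BRG1 tags over 4.38 in MR49F against 37 over 8.24 in LNCaP, and 52 SMARCC2 tags over 4.51 in MR49F against 41 over 10.9 in LNCaP. That in LNCaP lay 99.0 kb outside it, at the edge of the window, with 37 BRG1 tags over 6.51 in MR49F against 42 over 7.21 in LNCaP. BRIP1 and INTS2 share the window.

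MED13L, the paralogue of MED13, lies on chromosome 12 from 115958576 to 116277693 on the minus strand, with no other protein-coding gene in its window. It had 12 BRG1 peaks in MR49F against 13 in LNCaP, and 16 SMARCC2 peaks in MR49F against 9 in LNCaP. Inside the gene there were 11 SMARCC2 summits in MR49F against 6 in LNCaP. The start was called in all 4 lists, with 38 BRG1 tags over 4.38 in MR49F against 29 over 5.15 in LNCaP, and 29 SMARCC2 tags over 3.55 in MR49F against 28 over 5.44 in LNCaP. The strongest shared region in MR49F by BRG1 q-value lay 85.8 kb past the gene's lower end. It had 56 BRG1 tags over 3.77 in MR49F against 45 over 14.4 in LNCaP, and 58 SMARCC2 tags over 3.49 in MR49F against 55 over 15.2 in LNCaP. The strongest in LNCaP, 279 kb from the start, had 49 BRG1 tags over 4.56 in MR49F against 63 over 5.15 in LNCaP, and 84 SMARCC2 tags over 3.95 in MR49F against 65 over 5.34 in LNCaP. The stronger of its 2 MR49F-only regions lay 145 kb from the start, with 17 BRG1 and 26 SMARCC2 tags. Its LNCaP-only region, 117 kb from the start, was weak, with 20 BRG1 and 18 SMARCC2 tags.

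Both antibodies mostly marked the same sites at these genes. In MR49F, 49 of 59 BRG1 peaks (83.1%) overlapped a SMARCC2 peak and 51 of 72 SMARCC2 peaks (70.8%) a BRG1 peak. In LNCaP the figures were 45 of 69 (65.2%) and 47 of 52 (90.4%). Over the whole lists the 4 shares were 79.8%, 75.7%, 55.3% and 80.1%. Between lines, 42 of 59 MR49F BRG1 peaks (71.2%) overlapped an LNCaP BRG1 peak, beside 53.5% of the whole list, and 43 of 69 LNCaP BRG1 peaks (62.3%) overlapped an MR49F one, beside 67.3%. For SMARCC2 it was 36 of 72 MR49F peaks (50.0%), beside 40.6%, and 39 of 52 LNCaP peaks (75.0%), beside 77.1%.

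The 26 core Mediator genes, the complex to which the module attaches, had MR49F shares near those of all genes. They held 195 BRG1 peaks in MR49F against 153 in LNCaP, so that MR49F held 56.0%, and 171 SMARCC2 peaks in MR49F against 95 in LNCaP, so that it held 64.3%. Of the 26, 15 had more peaks in MR49F with both antibodies, close to the 53.8% of all genes, and 0 had more in LNCaP with both, beside 3.94%. MED24 and MED29 had the largest summed difference of 11, tied with MED21. MED24 had 17 BRG1 peaks in MR49F against 16 in LNCaP, and 16 SMARCC2 peaks in MR49F against 6 in LNCaP. MED29 had 14 BRG1 peaks in MR49F against 7 in LNCaP, and 9 SMARCC2 peaks in MR49F against 5 in LNCaP. At the low end MED28 had 2 BRG1 peaks in MR49F against 6 in LNCaP, and 7 SMARCC2 peaks in MR49F against 5 in LNCaP. MED19, tied with MED20, had 10 BRG1 peaks in MR49F against 13 in LNCaP, and 12 SMARCC2 peaks in MR49F against 9 in LNCaP.

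These counts rest on lists of unequal length and sensitivity. The lists held 44308 BRG1 and 47615 SMARCC2 peaks in MR49F, against 36174 and 25706 in LNCaP. The lowest local background was 2.62 tags for BRG1 and 2.39 for SMARCC2 in MR49F, against 3.31 and 3.45 in LNCaP, and the weakest called peak had 10 tags in each MR49F list, against 13 and 14 in LNCaP. A weak site could therefore be called with fewer tags in MR49F, whose lists were the longer ones; the part of this in the differences was not tested. Total tag numbers are not given in the peak lists, so the depth of each library is unknown beyond what these backgrounds show. Around the window limit, within the last 20 kb inside it there were 10 BRG1 and 7 SMARCC2 peaks in MR49F against 8 and 5 in LNCaP, and within the next 20 kb outside it 2 and 3 in MR49F against 5 and 2 in LNCaP.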

How the data were processed

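ChIP-seq of BRG1 and SMARCC2 was analysed from 4 peak lists, 1 library per line and antibody, in narrowPeak format. The authors deposited for each peak a score, a fold enrichment over local background (a ratio), and p-values and q-values as −log10, all without replicates; values start at a −log10 q of about 2, the MACS2 threshold of 0.01. BWA 0.7.10, SAMtools and MACS2 2.1.0, on hg38, are named in the submitters' processing notes. Summits were assigned to RefSeq GRCh38.p14 gene spans extended by 100 kb. Peaks of the 4 lists were joined into regions at 1 bp overlap. Tags and background at each summit were solved from the deposited fold and p-value, taking LNCaP pile-ups as scaled by 0.971 (BRG1) and 0.920 (SMARCC2). No source used here states that scaling; it was found from the values, and all LNCaP tags rest on it. At least 99.996% of each list's peaks were matched within a relative tolerance of 0.0001. Depth is unknown. Regional background was the median over peaks in the 10 Mb centred on each gene, divided by the autosomal median of its list. The solver was tested on simulated data. Python 3.11.15, NumPy 2.4.6, pandas 2.3.3, SciPy 1.17.1 and matplotlib 3.10.9 were used. Named regions were, per gene, that at the start, the strongest in all 4 lists and the strongest line-specific ones by BRG1 q-value, with all CDK8 peaks. The members and gene lists were chosen with earlier results of these data known.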

Additional observations from a re-analysis of the deposited data

How the results depend on the processing

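The CDK8 difference summed over both antibodies was -9 peaks and stayed between -11 and -3 in every alternative run, although its BRG1 part was 0 when only the 10000 strongest peaks of each list were kept. With those, the MR49F share at the 7 genes was 35.0% for BRG1 and 34.2% for SMARCC2. With every list limited to the 25706 strongest peaks, the length of the shortest, it was 40.5% for BRG1 and 40.2% for SMARCC2. At a −log10 q of at least 5 it was 50.5% for BRG1 and 61.1% for SMARCC2, both above the 46.1% and 58.1% of the main run. Equal lengths set the whole-list share to 50% by construction. LNCaP-only regions of both antibodies numbered 4 at a −log10 q of at least 5 and 5 at 50% reciprocal overlap, against 8. MR49F-only regions numbered 3 with a 10 kb extension, 3 with no extension, 1 with the 10000 strongest peaks, 1 with lists of equal length and 4 by nearest gene end, against 9. With lists of equal length LNCaP-only regions numbered 11. The summed difference at CCNC was 5 and at MED12 10, and they lay between -2 and 5 and between 0 and 8 in the alternatives. The causes were not tested. Of 120 further values, 94 stayed within their interval and 26 moved; 16 turned their sign, at CCNC, CDK19, MED12L or MED13L. No paired analysis was possible because each group has 1 library.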

Other observations

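The other transcriptional kinases and their partners, 9 genes in all, had MR49F shares near those of the whole lists. They held 69 BRG1 peaks in MR49F against 55 in LNCaP, and 68 SMARCC2 peaks in MR49F against 37 in LNCaP, MR49F shares of 55.6% and 64.8%. Of the 9, 6 had more peaks in MR49F with both antibodies, beside 53.8% of all genes, and 0 had more in LNCaP with both, beside 3.94%. CDK9, the kinase of the elongation factor P-TEFb, had 6 BRG1 peaks in MR49F against 4 in LNCaP, and 3 SMARCC2 peaks in MR49F against 0 in LNCaP. CDK12, an elongation kinase that pairs with cyclin K, had 11 BRG1 peaks in MR49F against 8 in LNCaP, and 8 SMARCC2 peaks in MR49F against 3 in LNCaP. CCNK, which encodes that cyclin, had 15 BRG1 peaks in MR49F against 12 in LNCaP, and 14 SMARCC2 peaks in MR49F against 7 in LNCaP.

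Luminal prostate and androgen-regulated marker genes had peaks in both lines (peak counts are no measure of expression). Of these 7 marker genes, 4 had more peaks in MR49F with both antibodies, beside 53.8% of all genes, and 0 had more in LNCaP with both. KLK3 and KLK2 each had 18 BRG1 peaks in each line. TMPRSS2, an androgen-regulated protease gene, had 17 BRG1 peaks in MR49F against 13 in LNCaP, and 18 SMARCC2 peaks in MR49F against 6 in LNCaP. HOXB13, a prostate lineage factor gene, had 17 BRG1 peaks in each line, and 15 SMARCC2 peaks in MR49F against 14 in LNCaP. Of 8 leukocyte, hepatocyte and fibroblast marker genes, DCN had no peak in any list and PTPRC had 1 peak with each antibody in MR49F and 0 in LNCaP. The other 6 had peaks in both lines, in windows that also take in neighbouring genes. Of the 8, 3 had more peaks in MR49F with both antibodies, and 1 had more in LNCaP with both, beside 3.94% of all genes. That gene was CD3E, with 7 BRG1 peaks in MR49F against 9 in LNCaP, and 5 SMARCC2 peaks in MR49F against 9 in LNCaP.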
